A study of Drosophila melanogaster with 8 samples.

Results

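CG12099 is a protein-coding gene of Drosophila melanogaster whose listed transcript, CG12099-PB, has a pair of poly(A) sites, one in its 3' UTR and one at its end. It was taken by its gene name and is 1 of 522 genes and 1 of 529 entries (a gene and its transcript) in the deposited count tables. It was selected on its proximal share and read numbers against the control in these same libraries, so those values are given as description, with no test. The annotation used here gives the identifier FBgn0035232 and no other name or function for the gene, so no role is ascribed to it.

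The poly(A) site of a transcript is where the nascent RNA is cleaved and the poly(A) tail is added. A gene with several such sites can end its mRNA at the proximal site, nearer its start, or at a distal site further on. Use of the proximal site gives a shorter 3' UTR with the same coding sequence when both sites lie downstream of the stop codon. Cbc, the fly Clp1 protein, and Pcf11 are partners in a cleavage factor of the machinery that cuts the nascent RNA.

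Poly(A) ends were counted by 3' end sequencing of whole testes, 150 pairs per library, in 4 groups of 2 libraries. All groups were bam mutant males (bam86 over bam1) that carried the drivers nosGal4 and bamGal4, which act in the germ line. The controls had no UAS transgene. The other groups carried UAS>cbc-V5, UAS>PCF11-RF-HA, or both, each as 1 copy on the second chromosome, and are here called cbc, PCF11 and both. Parents were crossed for 3 days at 25 degrees, after which their progeny were held at 29 degrees. Bam is needed for germ cells to leave the spermatogonial divisions, and testes that lack it are known to fill with early germ cells, beside the somatic cells of the organ. Because the controls lacked a transgene, an effect of cbc or PCF11 and an effect of carrying a UAS transgene cannot be told apart. Of the marker genes looked for, CycB and Rbp9 of 10 early germ line genes and zfh1, chinmo and Imp of 9 cyst and hub genes were in the tables, while 0 of 9 spermatocyte, 0 of 5 spermatid and 0 of 6 sheath, muscle and fat genes were. The tables hold only genes of a supplied site list, so these counts do not check the tissue. The listed reads came to 238162 to 333675 per library, which is not the depth of the libraries.

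On BDGP6, CG12099 lies on the minus strand of chromosome 3L from 1555363 to 1558484, and both of its annotated transcripts share one 3' UTR of 206 bases, from 1555363 to 1555568. The stop codon is at 1555569 to 1555571. The proximal site is at 1555482, with a counting window of 1555482 to 1555512, wholly inside the 3' UTR. The distal site is at 1555360, with a window of 1555360 to 1555390, and lies 3 bases past the annotated end of the gene. A transcript that ends at the proximal site keeps 87 bases of 3' UTR, which is 41.6% of the 209 bases up to the distal site. The sites are 122 bases apart, against a median of 440 bases over the 529 entries, of which 25 have sites closer together. Neither window overlaps another annotated gene. The nearest is Pcyt2, on the plus strand, whose annotated end at 1555315 is 45 bases from the distal window and 167 bases from the proximal one. Reads were counted without regard to strand, so plus-strand transcripts running past that end would be counted too, and their part was not tested. Pcyt2 is not among the listed genes.

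In the controls most CG12099 reads lay at the distal window. Control library 1 had 209 proximal and 330 distal reads, and control library 2 had 159 and 414. With cbc the libraries had 1435 proximal against 377 distal reads and 1436 against 302. With PCF11 they had 1500 against 329 and 1287 against 282, and with both transgenes 1141 against 367 and 1360 against 371. Every one of the 6 overexpression libraries thus had more proximal than distal reads, and both controls had fewer.

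The proximal share of the gene's reads was 38.8% in control library 1 (95% exact binomial interval 34.6% to 43.0%) and 27.7% in control library 2 (24.1% to 31.6%). These intervals cover counting error within a library only, taking each read as independent. The reads were counted without molecular identifiers, so reads copied from the same molecule would make the intervals too narrow. The control intervals do not overlap. The cbc libraries had 79.2% (77.3% to 81.0%) and 82.6% (80.8% to 84.4%). The PCF11 libraries had 82.01% (80.2% to 83.7%) and 82.03% (80.0% to 83.9%). The libraries that carried both transgenes had 75.7% (73.4% to 77.8%) and 78.6% (76.6% to 80.5%). All 6 overexpression libraries had a higher share than both controls. The control mean was 33.3% ± 7.80, that of cbc 80.9% ± 2.42, that of PCF11 82.0% ± 0.0104 and that of both 77.1% ± 2.05 (SD, n = 2 each). In order of these means PCF11 came first, then cbc, then both, then the control. PCF11 lay within the range of the cbc libraries, while both libraries with the 2 transgenes lay below all libraries with 1. The distance from the highest control to the lowest overexpression library was 36.9 percentage points.

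**Figure D1:**
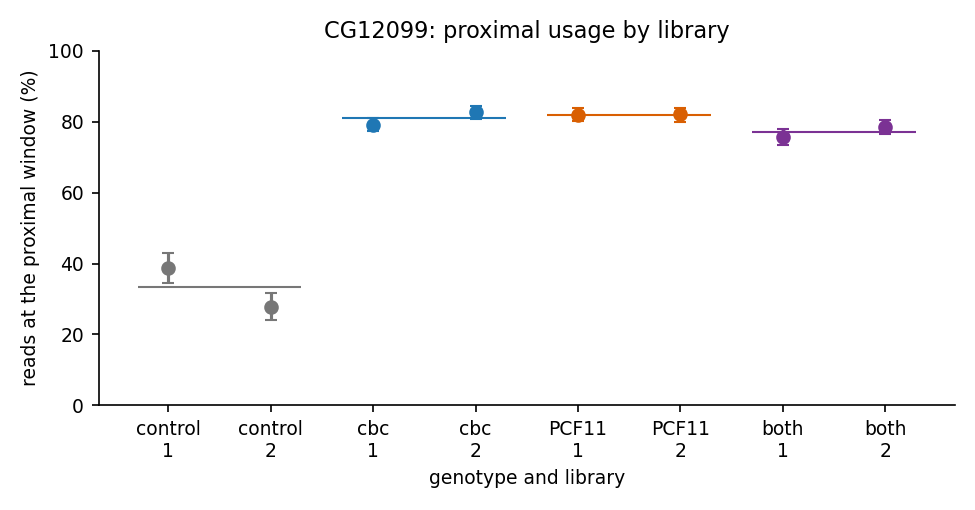
Percentage of CG12099 reads at the proximal window in each of the 8 libraries; points are libraries, bars are 95% exact binomial intervals and horizontal lines are group means. The controls stand at 38.8% and 27.7%, and the 6 overexpression libraries between 75.7% and 82.6%.

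The distal reads were at nearly the same level in all 8 libraries, and the difference in share lay in the proximal reads. Levels are given here in CPM, which are reads per 1000000 listed reads with TMM factors (edgeR's library scaling), and are relative to the listed genes. At the distal window the control libraries had 1261 and 1253 CPM, those with cbc 1310 and 1234, those with PCF11 1313 and 1183, and those with both 1239 and 1300. The overexpression libraries lay on either side of the controls. The distal level of each genotype over that of the control was 1.01 with cbc, 0.993 with PCF11 and 1.01 with both, or log2 0.02, -0.01 and 0.01. On the reads as deposited, with no scaling, these log2 ratios were -0.13, -0.28 and -0.01.

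At the proximal window the controls had 798 and 481 CPM. The libraries with cbc had 4985 and 5869, those with PCF11 5984 and 5398, and those with both 3853 and 4764. The groups did not overlap with the controls. The mean level was 8.48 times that of the control with cbc, 8.89 times with PCF11 and 6.73 times with both. Since the controls differed from each other, these ratios were 11.3, 11.8 and 8.95 without control library 1, and 6.80, 7.13 and 5.40 without control library 2.

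**Figure D2:**
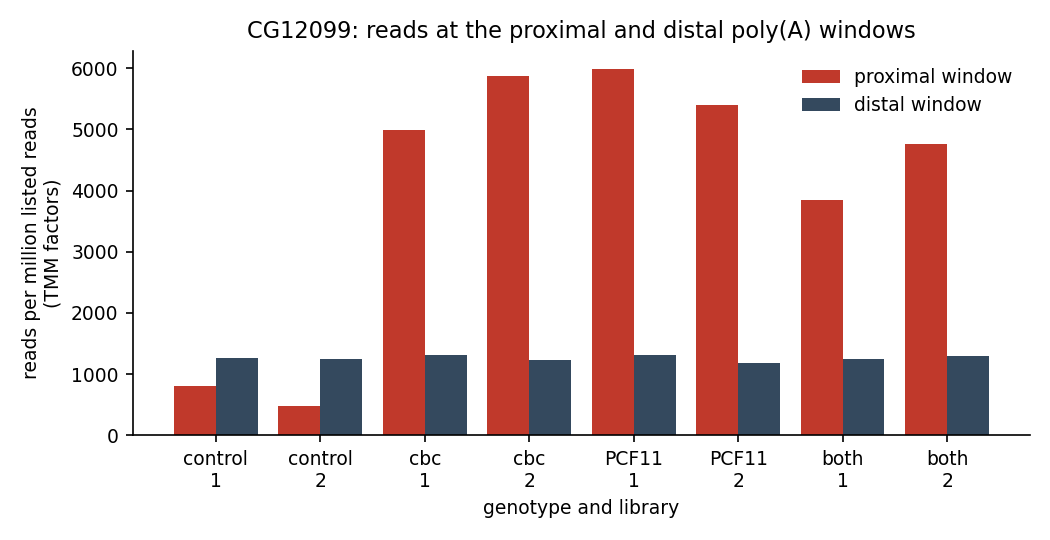
Reads of CG12099 at the proximal (red) and distal (dark blue) windows in each library, in CPM with TMM factors. Distal reads stay between 1183 and 1313 in all 8 libraries, while proximal reads are 481 and 798 in the controls and 3853 to 5984 in the others.

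Summed over both windows, CG12099 had 2059 and 1735 CPM in the control libraries. The libraries with cbc had 6295 and 7104, those with PCF11 7297 and 6581, and those with both 5092 and 6064, all above the controls. In these whole testes, fewer or more cells that express the gene and less or more of its RNA per cell cannot be told apart. The fitted change in summed reads was 3.53-fold with cbc (log2 1.82 ± 0.15, approximate SE), 3.66-fold with PCF11 (log2 1.87 ± 0.15) and 2.94-fold with both (log2 1.56 ± 0.15). Among 516 genes, with the sites of a gene's entries summed, these placed CG12099 at rank 19, 13 and 23, with medians over all genes of -0.00, 0.03 and 0.04 on the log2 scale. The proximal window held 99.7% of the difference in summed reads with cbc, 100.2% with PCF11 (where the distal level was slightly lower) and 99.7% with both. The gene went from rank 150 of 529 entries by mean level in the controls to rank 28 in the overexpression libraries, and from 0.172% and 0.209% of all listed reads in the controls to between 0.509% and 0.728% in the others.

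Each of the 516 entries with enough reads (a mean of 10 or more per library and 5 or more at each side in all) was fitted for usage, the odds that a read lies at the proximal rather than a more distal window. The log2 odds ratio against the control was 3.10 ± 0.30 for CG12099 with cbc, 3.21 ± 0.30 with PCF11 and 2.77 ± 0.29 with both (approximate SE), where the medians over all entries were 0.14, 0.36 and 0.27. By this measure CG12099 held rank 24, 22 and 26 of 516. These ranks rest on both controls: without control library 1 they were 30, 29 and 34 at 3.47, 3.57 and 3.13, and without control library 2 they were 64, 79 and 78 at 2.75, 2.85 and 2.41. The edgeR test called 39 entries with cbc (7.56%), 54 with PCF11 (10.5%) and 53 with both (10.3%), toward either site, and nothing is read from CG12099 against these. Many of the entries ahead of it rested on few control reads. Of the 23 ahead with cbc, 17 had 10 or fewer proximal reads in both controls together, as had 17 of 21 with PCF11 and 20 of 25 with both, whereas CG12099 had 368. None of the entries ahead had a smaller SE in any of the 3 comparisons. Their median SE was 2.02, 2.53 and 1.68. Over all 516 entries the median SE was 0.665, 0.658 and 0.655, and 47, 48 and 49 entries had a smaller SE than CG12099.

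In percentage points the shift of CG12099 was 47.6 with cbc, 48.8 with PCF11 and 43.9 with both, rank 5, 2 and 3 of 516. The entries ahead of it by this measure were named after their values were seen. TH1, which belongs to the negative elongation factor complex, was ahead in all 3 comparisons, at 52.0, 49.0 and 47.4 points. With cbc CG1486, Cdk5 and Suv3 were also ahead, at 59.3, 54.1 and 48.8 points, and with both so was nonC, the Smg1 kinase of nonsense-mediated decay, at 49.1 points. Windows of Cdk5 and Suv3 overlap a gene on the opposite strand, so their values are uncertain. All 6 overexpression libraries lay above both controls in 98 of 516 entries (19%), CG12099 among them. The distance between the lowest of the 6 and the higher control, 36.9 points, was the largest of the 516.

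**Figure D3:**
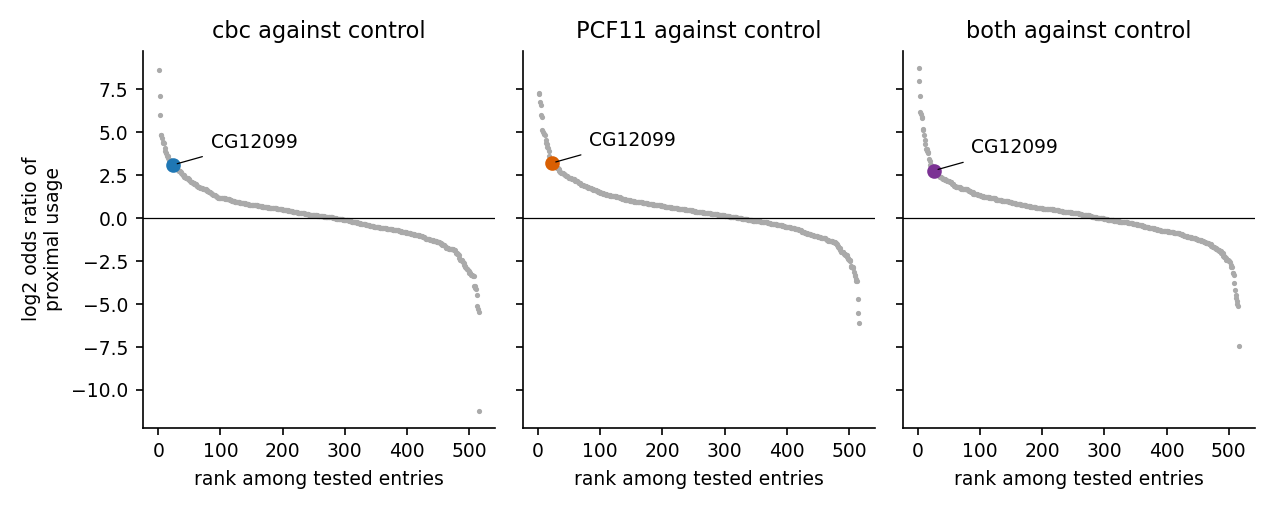
Log2 odds ratio of proximal usage against the control for all 516 tested entries, in order of size, for cbc, PCF11 and both; each grey point is an entry and the coloured point is CG12099. It stands at 3.10, 3.21 and 2.77, at rank 24, 22 and 26.

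The nearest entries in that order give a sense of what stands behind values of this size. With cbc the entries directly ahead were hppy (log2 odds ratio 3.16 ± 1.92) and Suv3 (3.13 ± 0.82), and those directly behind were Bub1, the spindle checkpoint kinase (3.09 ± 1.19), and Arp2 (2.97 ± 0.86), a subunit of the actin-nucleating Arp2/3 complex. Hppy had 1 proximal read of 318 in the controls and 17 of 402 with cbc. With PCF11 Calx and Cbl (entry Cbl-PA) stood directly ahead (3.25 ± 3.00 and 3.25 ± 0.92), and Bub1 and retm directly behind (3.20 ± 1.22 and 3.15 ± 0.70). Cbl-PB, also a tested entry of Cbl, went the other way, at -0.39 with PCF11 and -0.59 with both. Calx had 0 proximal reads of 53 in the controls, so its fitted value depends on the method. With both, croc and Cbl-PA stood ahead (2.84 ± 1.19 and 2.83 ± 0.91) and ebo and mod(mdg4)-PAA behind (2.71 ± 3.32 and 2.70 ± 1.25). Mod(mdg4)-PA, also a tested entry of mod(mdg4), was at 1.34 with both. Ebo had 0 proximal reads of 1071 in the controls and 2 of 1381 with both. The proximal window of mod(mdg4)-PAA overlaps other genes on its strand. All of these neighbours had a larger SE than CG12099.

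Entries with sites under 200 bases apart are the most like CG12099 in layout, and 100 of them were tested. Their median log2 odds ratio was 0.32 with cbc, 0.63 with PCF11 and 0.48 with both transgenes. Among the 100, CG12099 was at rank 2, 2 and 3. Its proximal share in the controls was above that of most genes, at 33.3% against a median of 19.8%, with 150 of 516 entries higher. Over the 6 overexpression libraries only 17 entries had a higher mean share, and the median was 21.5%.

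How far proximal and distal reads moved was also set side by side for all entries, as log2 ratios to the control with 1 CPM added. For CG12099 the proximal log2 ratios were 3.08, 3.15 and 2.75 with cbc, PCF11 and both, at rank 25, 27 and 33 of 516. Its distal ratios held rank 239, 239 and 244. The median entry had -0.05, -0.06 and -0.04 at its distal sites. By limits chosen after these values were seen, 26 entries had proximal reads at 4 times the control or more in all 3 genotypes, and 220 had distal reads within 1.5-fold of it. The 9 entries (1.74%) that met both were CG12099, CG1486, Cbl-PA, Deaf1, Herp, Rop, TH1, ebo and ric8a, of which ebo had no proximal control reads. Cbl-PA had 6 proximal reads of 307 in the controls. The proximal log2 ratios of Cbl-PB, also an entry of Cbl, were -0.84, -0.83 and -1.65 with cbc, PCF11 and both. Rop is a Sec1/Munc18 protein of vesicle fusion and Deaf1 a transcription factor.

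**Figure D4:**
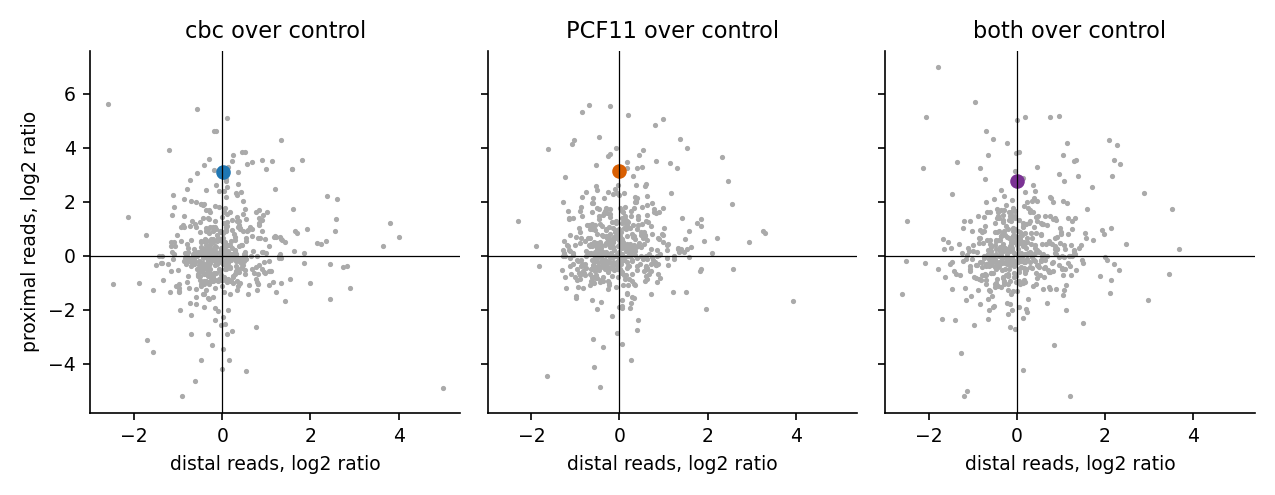
Log2 ratio of distal reads (horizontal) and of proximal reads (vertical) to the control, with 1 CPM added, for 516 entries in cbc, PCF11 and both; the coloured point is CG12099. It lies on the vertical zero line in each panel, with distal values of 0.02, -0.01 and 0.01 and proximal values of 3.08, 3.15 and 2.75.

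The spread between duplicates of CG12099 was close to that of other entries in the controls and below it elsewhere. These gaps were not adjusted for read number. By mean level CG12099 held rank 150 of 529 in the controls and 28 in the others, and the part of read number was not tested. The control libraries differed by 0.72 in log2 odds, where the median entry differed by 0.76 and 261 of 516 differed more. The cbc libraries differed by 0.32 (median 0.53), those with both by 0.24 (median 0.52) and the PCF11 libraries by 0.001 (median 0.51), with 511 entries differing more than CG12099 with PCF11. In percentage points the controls differed by 11.0, against a median of 5.04.

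The overexpression genotypes were then compared with each other. The values of these differences do not use the controls, but the choice of the gene rested on the overexpression libraries as well. These comparisons are therefore not free of that choice. The fit also took its spread from all 8 libraries, controls included. None of the 3 differences in usage passed the edgeR quasi-likelihood test with Benjamini-Hochberg adjustment over 516 entries. For cbc minus PCF11 the log2 odds ratio was -0.10 ± 0.29 (95% interval -0.75 to 0.55, adjusted p = 0.982). For both minus cbc it was -0.33 ± 0.29 (-0.98 to 0.31, edgeR adjusted p = 0.899), a difference of -3.79 points. For both minus PCF11 it was -0.43 ± 0.29 (-1.08 to 0.21, edgeR adjusted p = 0.992), a difference of -4.90 points. Usage in the genotype with both transgenes was lower in 2 of 2 libraries than in any library with 1 transgene, but not beyond the fitted spread. The intervals allow an odds ratio from 0.507 to 1.24 for both over cbc and from 0.472 to 1.16 for both over PCF11. In each of these 3 comparisons edgeR called 0 of 516 entries (0%). The entries with an unadjusted edgeR p under 0.05 numbered 44, 32 and 18, and DESeq2 called 5, 4 and 1.

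The single-transgene coefficients against the control sum to 6.31, and that of both transgenes was 2.77. Adding cbc to PCF11 thus went with -0.43 and cbc alone with 3.10 on the log2 scale. The difference between these values was not tested, since the second was what the gene was chosen for.

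Summed reads did not pass between overexpression genotypes either. The log2 difference was -0.05 ± 0.15 for cbc minus PCF11 (95% interval -0.36 to 0.26, edgeR adjusted p = 0.946). For both minus cbc it was -0.26 ± 0.15 (-0.57 to 0.05, edgeR adjusted p = 0.403). For both minus PCF11 it was -0.32 ± 0.15 (-0.62 to -0.01, edgeR adjusted p = 0.728), an interval that leaves out 0 before adjustment over 516 genes. Both libraries with 2 transgenes, at 5092 and 6064 CPM, lay below both cbc and both PCF11 libraries. EdgeR called 0 (0%), 2 (0.388%) and 1 (0.194%) of 516 genes for summed reads in the 3 comparisons, namely nrv2 and alpha-Est5 for both against cbc and nrv2 for both against PCF11, named after their values were seen. Unadjusted p-values were under 0.05 for 35, 71 and 32 genes, and DESeq2 called 0, 4 and 2.

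The entries whose usage profile was most like that of CG12099 were found by the Euclidean distance, over the 8 libraries, of the log2 odds of proximal usage after each entry's own mean was taken away. TH1 was nearest (distance 0.976), followed by sbb, a transcriptional regulator (1.01), CG10631 (1.05), Suv3, an RNA helicase (1.11), and the exonuclease Snp (1.18), where the median over 515 entries was 4.13. They share libraries with CG12099, so the closeness is a description. TH1 stood at 22.6% and 33.3% in the controls and between 66.8% and 83.9% in the others. Sbb had the same form at a lower level, from 4.46% and 6.54% to between 16.5% and 32.5%. The profiles hide different changes in reads. The mean over the 6 overexpression libraries, divided by the control mean, was 8.04 for the proximal reads of CG12099, whose distal reads differed by log2 0.01, and 10.9 for proximal and 1.17 for distal reads of TH1. It was 4.75 and 0.873 for sbb, 2.61 and 0.459 for CG10631, 4.19 and 0.521 for Suv3, and 2.71 and 0.508 for Snp. Distal windows of Suv3 and Snp overlap a gene on the opposite strand. CG10631, Suv3 and Snp thus had fewer distal reads than the controls beside more proximal ones. So had sbb, with a smaller drop in distal reads, while CG12099 and TH1 did not.

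**Figure D5:**
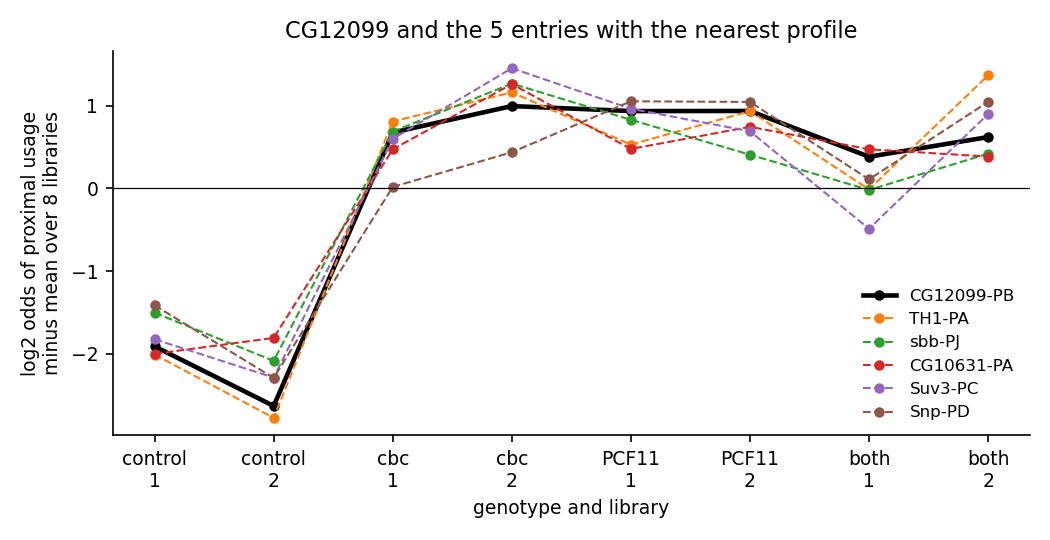
Log2 odds of proximal usage in each library, minus the entry's mean over the 8 libraries, for CG12099 (black) and the 5 entries with the nearest profile. All 6 lie below 0 in both controls, and CG12099 lies above 0 in every other library.

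A pair of gene lists gives context. One holds 58 ubiquitin ligase genes and had been drawn up with CG12099 in it, although the annotation used here gives that gene no function. Genes were matched by symbol only. Of the 58, CG12099 and 11 others were found this way, the others with 12 tested entries. The windows of CG42797 lie over Hecw, a gene of the list, on the same strand, but it was not counted. Its log2 odds ratios were -0.31, 0.26 and -0.35 with cbc, PCF11 and both. With cbc 0 of the 12 passed the usage test in either direction, where 5.62% of all entries passed in the proximal direction and 1.94% in the distal one. With PCF11 and with both 1 of 12 moved toward the proximal site and 0 toward the distal, against 9.11% and 1.36% of entries with PCF11 and 7.56% and 2.71% with both. That entry was Cul3, the scaffold of a cullin-RING ligase, which rose from 19.6% ± 3.08 to 38.7% ± 0.498 with PCF11 (edgeR adjusted p = 0.0128) and to 39.2% ± 0.738 with both (edgeR adjusted p = 0.0143). The medians of the 12 entries were -0.10, -0.08 and -0.35. The other list had 23 genes, drawn up for cleavage and polyadenylation, of which only CycT was found by symbol. CycT is the cyclin of the elongation kinase P-TEFb and not itself a cleavage factor, so no cleavage factor of the list was found by symbol. It had log2 odds ratios of -0.74 ± 0.53, -0.12 ± 0.53 and -0.74 ± 0.53 (edgeR adjusted p = 0.435, 0.920 and 0.430). Neither cbc nor Pcf11 had a listed site, so the transgenes' own RNA could not be read here.

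In the authors' deposited table, made from the same counts, the mean proximal share of CG12099 was 33.3% in the control and 80.9%, 82.0% and 77.1% with cbc, PCF11 and both. The index in the authors' deposited table, which for this gene equals minus the log2 ratio of the overexpression to the control proximal share, was -1.28, -1.30 and -1.21, at rank 38 of 420, 47 of 426 and 39 of 421 genes with a finite index, counted from the most proximal. By difference in mean proximal share it stood at rank 5, 2 and 3 in the authors' deposited table.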

How the data were processed

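Read counts at each poly(A) site were deposited as PolyA-miner gave them, unnormalised, and the run's log shows windows of 30 bp at a supplied list of 1098 sites, counted without strand (setting 0) and without molecular identifiers. Libraries were QuantSeq forward libraries, per the labels' protocols, and the submitters' processing notes name Bowtie, SAMtools and dm6/BDGP6. The authors' deposited tables also give mean proximal and distal fractions of reads, a usage index (a score), and p-values, per the file headers; only their values for CG12099 are quoted, without the p-values. The deposited positions were placed on a BDGP6 annotation in which 16955 of 17017 matched genes (99.64%) had the same start and end.

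The 3 tables repeat the control columns, and all 8 libraries were joined over 1082 sites in 529 entries. Proximal reads were those at the site nearest the gene's start and distal reads those at all others. Usage was fitted in R 4.3.3 by the quasi-likelihood method of edgeR 4.0.16, with terms for library, site and site by genotype, for 516 entries, and summed reads with TMM factors for 516 genes with a mean of 10 or more reads. The Benjamini-Hochberg adjustment was applied over all entries or genes tested, and 0.05 was the threshold. Approximate SEs are the coefficient over the root of F. Log odds for profiles used a pseudocount of 0.5. The fits were also run on simulated counts, with the same spread for every entry and added shifts larger than the direct differences of CG12099. Those runs do not show how well differences of this size are found. DESeq2 1.42.0, a replicate block, other minimums, only the 4 libraries compared, other scaling and each library left out were alternatives. The labels do not state separate crosses or dissections, so the tests see only the spread among these libraries, which may be technical. Named entries were CG12099, the 2 ranked directly above and below it, the 5 nearest profiles and list members that passed; CycT, the one listed member of its list, did not pass and was named after its values were seen, and others are marked as named after their values were seen. The gene, the lists and the rules were chosen with earlier results of these data known. Sequences around the sites were not analysed here.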

Additional observations from a re-analysis of the deposited data

How the results depend on the processing

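In 195 comparisons of a result with an alternative, 163 were classed as the same, 29 as moved and 3 as reversed. For the values of CG12099, the same means that direction and side of the threshold were kept or the move was within the spread. Counts of calls have no direction or spread, and a count classed as the same could still change. With cbc against the control, 39 usage calls became 26 with a replicate block, classed as the same. They became 24 on only the 4 libraries compared, classed as moved. For CG12099 between overexpression genotypes, 5 other settings gave usage differences of -0.10, -0.33 and -0.43, and none passed (lowest edgeR adjusted p = 0.805, on only the 4 libraries compared). Leaving out 1 library gave -0.26 to 0.060 for cbc minus PCF11, -0.49 to -0.17 for both minus cbc and -0.55 to -0.32 for both minus PCF11. For summed reads the ranges were -0.14 to 0.045, -0.40 to -0.14 and -0.45 to -0.19. The sign of cbc minus PCF11 turned without cbc library 1 (0.060 for usage, 0.045 for summed reads) and, for summed reads, without PCF11 library 1 (0.025). Against the control, the share differed by 42.1 to 53.2, 43.2 to 54.3 and 38.3 to 49.4 points with cbc, PCF11 and both when 1 library was left out. Proximal log2 ratios were then 2.77 to 3.50, 2.83 to 3.56 and 2.43 to 3.16, and distal ones -0.03 to 0.06, -0.09 to 0.06 and -0.02 to 0.05. Scaling alternatives for these ratios were chosen after the values were seen; the reads as deposited moved the distal ratio to -0.13 with cbc and -0.28 with PCF11, by not correcting for listed reads.

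Entries called for usage against the control numbered 39, 54 and 53 with cbc, PCF11 and both. They numbered 24, 25 and 15 on only the 4 libraries compared, and 62, 71 and 77 with DESeq2. With 1 library left out, the lone one being assumed to vary like the others, they numbered 3 to 25, 12 to 49 and 7 to 44. The lowest were 3 without either cbc library, 12 without PCF11 library 1 and 7 without library 2 of both. Direct usage comparisons had 0 calls in all of these except DESeq2 (5, 4 and 1). Summed reads had 2 calls for both against cbc (4 with DESeq2, 0 to 10 with 1 library left out, 10 being without library 2 of both) and 1 for both against PCF11 (2 with DESeq2, 0 to 2). The cause of these moves was not tested. Deviations of same-numbered libraries correlated at -0.05 to 0.07 for usage and -0.11 to 0.15 for summed reads over the group pairs. Counting error also brings such correlations toward 0, so they cannot decide whether same-numbered libraries were prepared together. With a replicate block the usage calls were 26, 41 and 42 against the control, the summed calls 0, 1 and 0 between overexpression genotypes, and CG12099 kept -0.10, -0.33 and -0.43 for usage and -0.05, -0.26 and -0.32 for summed reads under the block.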
